A study of Homo sapiens with 4 samples.

Results

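The class I histone deacetylase genes HDAC1, HDAC2, HDAC3 and HDAC8 and the corepressor gene SIN3A were followed across 4 conditions of HCT116 cells, a human colorectal carcinoma line. These 5 genes are represented by 6 transcript clusters, all those that the array's probe table pairs with their symbols, among 16098 named clusters of 14884 genes. Cells were left untreated or received 1 mM hydroxyurea, 2 µM MS-275 or both agents for 24 h, and each condition gave the RNA for 1 Affymetrix GeneChip Human Gene 2.0 ST array. Values are RMA intensities on a linear scale, so that a signal can be compared between the arrays but not between genes. Every condition has 1 array, so the differences below have no measure of error between replicates and were not tested. Nothing in the labels says whether the 4 cultures were handled together, and differences between cultures or arrays cannot be told apart from those between treatments.

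Class I HDACs are zinc-dependent enzymes that remove acetyl groups from lysines of histones and other proteins. HDAC1 and HDAC2 are close relatives and work inside the SIN3, NuRD, CoREST and MiDAC complexes, whereas HDAC3 is the catalytic subunit of the NCoR/SMRT corepressor complex. HDAC8 acts outside such complexes and deacetylates the cohesin subunit SMC3. SIN3A is a scaffold without enzymatic activity of its own that links HDAC1 and HDAC2 to DNA-binding repressors such as MXD1. The benzamide MS-275 (entinostat) blocks the catalytic activity of HDAC1, HDAC2 and HDAC3. Hydroxyurea inhibits ribonucleotide reductase and stalls DNA replication. The arrays show the mRNA of the drug targets and report neither the amount nor the activity of the enzymes.

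The sequences before and at the transcription starts of the members differ in base composition, and those of the 4 HDAC genes are printed. Whether these letters or their order relate to the array values was not tested. RefSeq windows on GRCh38.p14, from 250 bases before to 50 bases after a start, were matched by symbol for 5 of 5 genes. They lie at chr1:32291833-32292132 on the plus strand for HDAC1, and on the minus strand at chr5:141636800-141637099 for HDAC3, chr6:113971099-113971398 for HDAC2 and chrX:72572794-72573093 for HDAC8. Each is written 5′ to 3′, and capitals mark the GC box letters GGGCGG and the CCAAT box letters CCAAT, searched on both strands with overlapping matches counted.
HDAC1: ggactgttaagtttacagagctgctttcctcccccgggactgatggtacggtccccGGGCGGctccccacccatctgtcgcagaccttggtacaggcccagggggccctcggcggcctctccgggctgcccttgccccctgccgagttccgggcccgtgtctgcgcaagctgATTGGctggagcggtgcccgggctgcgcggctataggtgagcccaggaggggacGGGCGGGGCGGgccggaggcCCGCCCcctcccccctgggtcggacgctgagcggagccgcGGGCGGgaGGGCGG
HDAC3: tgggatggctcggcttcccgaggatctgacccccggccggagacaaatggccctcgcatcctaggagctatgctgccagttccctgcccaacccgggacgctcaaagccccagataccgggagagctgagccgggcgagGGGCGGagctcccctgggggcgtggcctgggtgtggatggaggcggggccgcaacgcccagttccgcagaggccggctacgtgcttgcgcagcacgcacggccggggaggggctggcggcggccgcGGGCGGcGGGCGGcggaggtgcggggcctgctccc
HDAC2: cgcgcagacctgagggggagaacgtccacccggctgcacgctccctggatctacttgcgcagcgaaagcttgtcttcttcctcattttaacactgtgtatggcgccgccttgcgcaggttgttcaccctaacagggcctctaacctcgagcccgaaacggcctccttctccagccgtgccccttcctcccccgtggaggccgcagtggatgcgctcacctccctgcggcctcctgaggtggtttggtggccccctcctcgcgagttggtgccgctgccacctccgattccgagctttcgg
HDAC8: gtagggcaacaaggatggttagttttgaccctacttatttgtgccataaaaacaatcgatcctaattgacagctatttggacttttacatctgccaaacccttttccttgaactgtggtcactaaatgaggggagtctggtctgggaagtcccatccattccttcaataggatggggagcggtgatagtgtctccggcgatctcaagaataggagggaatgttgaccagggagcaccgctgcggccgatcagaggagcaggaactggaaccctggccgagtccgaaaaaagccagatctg

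The HDAC1 window held 6 GC boxes and 1 CCAAT box, and the HDAC3 window held 3 GC boxes and 0 CCAAT boxes. Neither motif was in the windows of HDAC2 and HDAC8. Their G and C content was 73.7% for HDAC1, 74.0% for HDAC3, 64.0% for HDAC2 and 49.3% for HDAC8, next to a median of 58.7% over 35116 windows of the table. Of all these windows, 45.0% held a GC box, 15.8% held at least 3, 34.6% held a CCAAT box and 34.9% held neither. SIN3A, on the minus strand of chromosome 15, has a pair of windows, with 4 GC and 3 CCAAT boxes in 1 of them and 1 of each in the other. A match describes these letters only and does not show that a factor binds there.

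With the brightest cluster of each gene, none of the 5 genes passed 1.5-fold in any of the 5 comparisons between arrays. The comparisons cover 7649 genes whose mean intensity was at or above 90.5, the median of the named clusters, and all 5 members passed this filter with their brightest cluster. With MS-275 against untreated cells, 0 of the 5 members were past 1.5-fold, while 13.8% of all genes were. With MS-275/hydroxyurea against hydroxyurea alone, the count was 0 of 5 next to 14.1% of all genes. For hydroxyurea it was 0 of 5 without MS-275 (background 4.39%) and 0 of 5 with MS-275 (background 5.87%). Between MS-275/hydroxyurea and untreated cells it was 0 of 5, with a background of 18.5%. With 5 genes, counts of 0 lie near what these backgrounds give and single out nothing about the members.

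At a lower bound of 1.2-fold, HDAC3 and HDAC8 were the members that passed. HDAC3 was past it with MS-275 on either background, where 44.7% and 45.4% of all genes were past 1.2-fold in either direction. With hydroxyurea against untreated cells 0 members passed (background 28%), and with MS-275/hydroxyurea against MS-275 there were also 0 (background 28.5%). Between the combined treatment and untreated cells, HDAC3 was past 1.2-fold upwards, as were 26.8% of all genes, and HDAC8 downwards, as were 23.7%. In either direction the background was 50.5%.

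**Figure D1:**
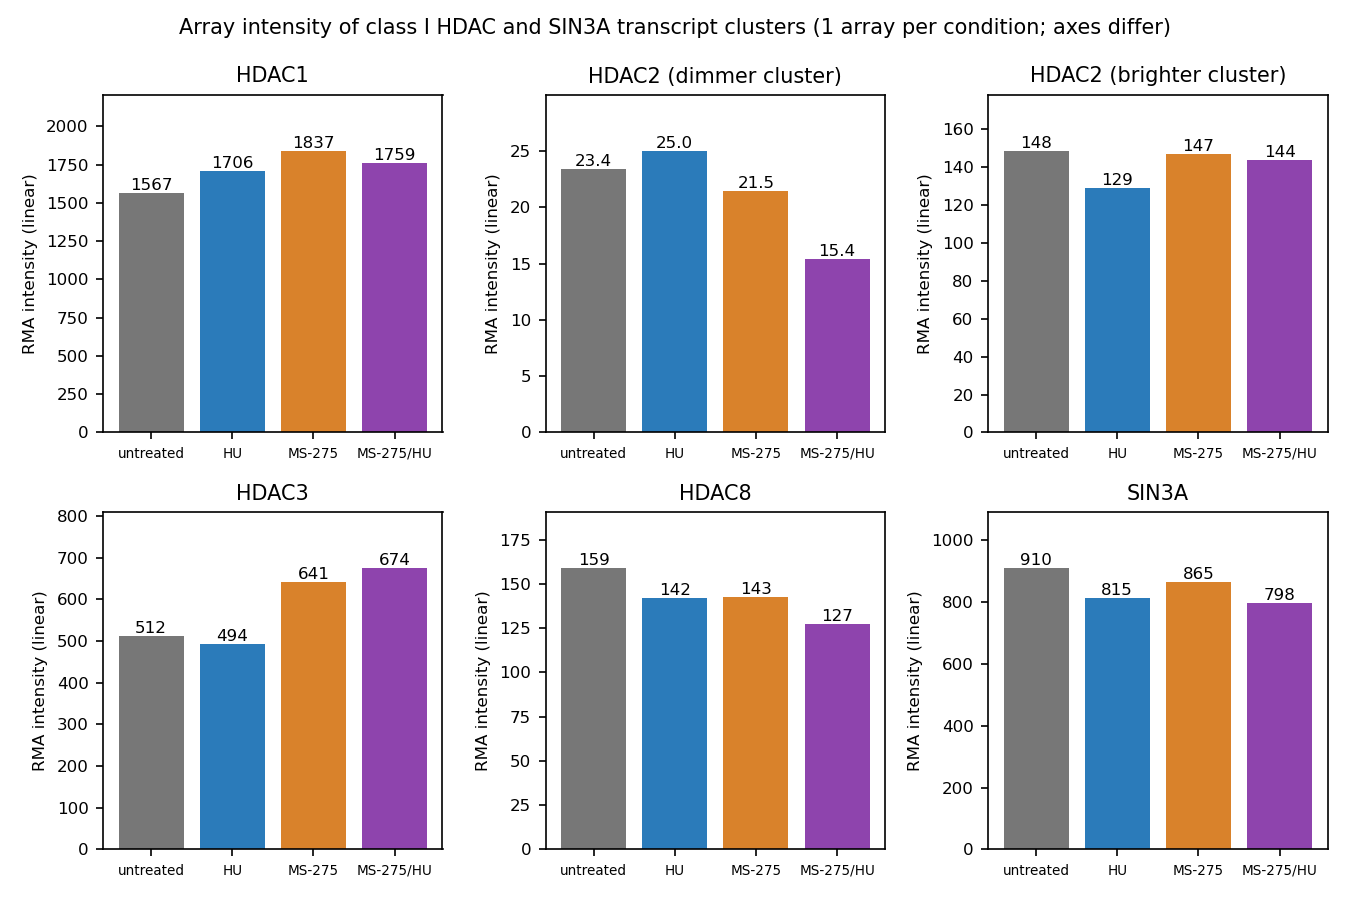
RMA intensity (linear scale, 1 array per bar) of the 6 transcript clusters in untreated cells and in cells treated with hydroxyurea (HU), MS-275 or both. HDAC3 stood at 641 and 674 on the arrays with MS-275 and at 512 and 494 on those without it, whereas the intensities of HDAC8 and SIN3A were highest in untreated cells.

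HDAC3 had the widest span of the 5 genes. Its cluster (17000900) gave an intensity of 512 in untreated, 494 in hydroxyurea-treated, 641 in MS-275-treated and 674 in MS-275/hydroxyurea-treated cells. Both arrays with MS-275 were thus above both arrays without it. The difference with MS-275 was 1.25-fold (0.32 on the log2 scale) without hydroxyurea and 1.37-fold (0.45) with hydroxyurea. These ratios were above those of 82.2% and 86.9% of all genes. Among the 7649 genes, 15.1% were past 1.2-fold higher in both of these comparisons, so that HDAC3 shared this behaviour with 1157 genes, itself included. Hydroxyurea went with small differences in opposite directions, 0.96-fold without and 1.05-fold with MS-275. Relative to untreated cells, HDAC3 was 1.32-fold higher after the combined treatment, a ratio above that of 80.7% of all genes.

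HDAC1 was lowest in untreated cells. The cluster (16662077) read 1567 in untreated cells, 1706 after hydroxyurea, 1837 after MS-275 and 1759 after the combination. The 3 arrays of treated cells were therefore all above that of untreated cells, by 1.09-fold with hydroxyurea, 1.17-fold with MS-275 and 1.12-fold with both. The ratio with MS-275 alone was above that of 75.7% of all genes and that with hydroxyurea alone above that of 68.3%. With the drugs together the log2 difference was 0.17, below the 0.23 of MS-275 alone, and adding hydroxyurea to MS-275 gave 0.96-fold. On the background of hydroxyurea, MS-275 was accompanied by a ratio of 1.03-fold, and 90.0% of all genes differed at least as much in that comparison.

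HDAC2, the partner of HDAC1, differed least with MS-275 alone. Its brighter cluster (17022854) had intensities of 148 without treatment, 129 after hydroxyurea, 147 after MS-275 and 144 after MS-275/hydroxyurea. The array of hydroxyurea-treated cells was the lowest, and the other 3 lay close together. MS-275 without hydroxyurea gave 0.99-fold, and 95.6% of all genes differed at least as much. With hydroxyurea present, the ratio was 1.12-fold, taken against the lowest of the 4 arrays. Between the combined treatment and untreated cells it was 0.97-fold, and 89.9% of all genes differed at least as much. Hydroxyurea alone gave a 1.15 times lower intensity, which lay below the lower quartile of all genes (-0.14 on the log2 scale, against -0.20 for HDAC2).

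A dimmer cluster (17011843) also bears the symbol HDAC2, but its mean intensity of 21.0 was below the filter. It read 23.4 in untreated cells, 24.99 after hydroxyurea, 21.5 after MS-275 and 15.4 after the combination. The array of the combined treatment was the lowest, 1.62 times below hydroxyurea and 1.52 times below untreated cells, both past 1.5-fold. Of all genes, 3.27% and 6.41% had a lower ratio in these comparisons. The intensities of this cluster are also below the median of all clusters on every array. Clusters of this array are numbered along the strands, since for 95.2% of 11539 named clusters most of the 10 nearest numbers belong to genes on the same strand. HDAC2 is a minus-strand gene. For the brighter cluster 9 of 10 neighbours were minus-strand genes, while for the dimmer cluster 0 of 10 were. All these neighbours lie on chromosome 6. Whether the dimmer cluster measures HDAC2 mRNA was not tested. Its values are not used as those of the gene, except in the alternative setting that averages a gene's clusters, where HDAC2 fell below the filter.

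HDAC8 was lower with each drug and lowest with both. Its cluster (17112032) had an intensity of 159 in untreated cells, 142 after hydroxyurea, 143 after MS-275 and 127 after both. The arrays with 1 drug lay together between the other two. MS-275 was accompanied by a 1.11 times lower intensity without hydroxyurea and a 1.12 times lower one with it. For hydroxyurea the values were 1.12 times lower without MS-275 and 1.12 times lower with it. The sum of the single-drug differences and the difference of the combination (-0.32 on the log2 scale, 1.25 times lower) deviated by -0.0034, and 98.7% of all genes deviated at least as much from such additivity. In the same 4 comparisons, 33.2%, 31.9%, 22.5% and 19.9% of all genes had a lower ratio than HDAC8.

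SIN3A was ordered over the arrays as HDAC8 was. The intensity of its cluster (16811791) was 909.8 in untreated cells, 815 after hydroxyurea, 865 after MS-275 and 798 after the combination. Both arrays with hydroxyurea were below both arrays without it. The hydroxyurea differences were 1.12 times lower without MS-275 and 1.08 times lower with it, and 29.4% of all genes were below 0 in both comparisons. With MS-275 the differences were smaller, 0.95-fold and 0.98-fold, and 82.1% and 93.3% of all genes differed at least as much. The combination gave a log2 difference of -0.19, close to that of hydroxyurea alone at -0.16. The SIN3A protein (mSIN3A) served the study as a loading control on its blots. On the arrays, the mRNA spanned 1.14-fold between the highest and the lowest condition, and 12.3% of all genes spanned less.

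**Figure D2:**
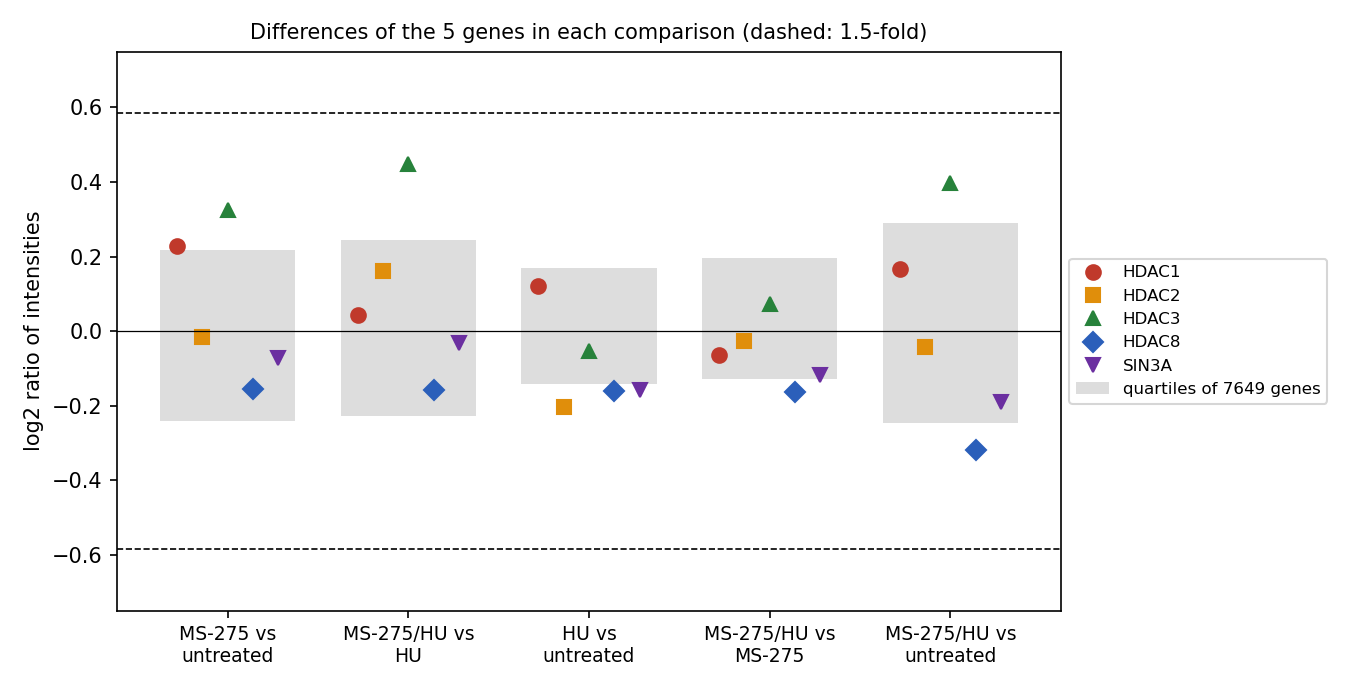
Log2 ratios of the 5 genes (brightest cluster) in the 5 comparisons between arrays. Grey boxes run from the lower to the upper quartile of all 7649 genes, and dashed lines mark 1.5-fold. HDAC3 lies above the boxes in the 2 comparisons of MS-275 and in that of the combined treatment with untreated cells, at 0.32, 0.45 and 0.40. HDAC1 lies just above the box with MS-275 (0.23), HDAC2, HDAC8 and SIN3A lie below it with hydroxyurea (-0.20, -0.16 and -0.16), HDAC8 also with hydroxyurea on MS-275 (-0.16) and with the combination (-0.32), and no gene reaches a dashed line.

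Measured by their span over the 4 arrays, 4 of the 5 members varied less than the median gene, which spanned 1.35-fold. The spans were 1.14-fold for SIN3A, 1.15-fold for HDAC2, 1.17-fold for HDAC1 and 1.25-fold for HDAC8. For HDAC3 it was 1.37-fold, wider than that of 52.9% of all genes. The genes were not matched for brightness in this comparison. The median log2 difference of the 5 members was -0.02 with MS-275 and 0.04 with MS-275 in the presence of hydroxyurea, next to -0.01 and 0.00 over all genes. With hydroxyurea it was -0.16, and -0.06 in the presence of MS-275, next to 0.01 and 0.03 over all genes. Hydroxyurea went with a lower intensity of HDAC2, HDAC8 and SIN3A both without and with MS-275, although for HDAC2 the latter difference turned from -0.03 to 0.01 on the log2 scale when each array was centred on its median. The hydroxyurea comparisons do not share an array with each other, but each shares its arrays with those of MS-275.

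Of the HDAC genes of classes II and IV, HDAC5 was at 1.31-fold with MS-275 and 1.32-fold with MS-275 on hydroxyurea, next to 1.25-fold and 1.37-fold for HDAC3. HDAC7 was at 0.90-fold and 0.71-fold, HDAC4 at 0.89-fold and 1.26-fold and HDAC11 at 1.11-fold and 1.26-fold, while HDAC6 and HDAC10 lay between 0.97-fold and 1.07-fold. HDAC9, below the filter, was at 1.42-fold and 1.40-fold.

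The genes whose centred log2 profiles over the 4 arrays lay nearest to those of the members were sought among the 7649 genes. For HDAC3 they were TMEM185A (distance 0.02), ZNF445 (0.02) and GOLGA6L9 (0.03). HDAC1 was nearest to FCHSD1, EID1 and PC, at distances of 0.01 to 0.02, and EID1 encodes an inhibitor of the acetyltransferase p300. HDAC2 was nearest to AASDHPPT, CYB5RL and PRPSAP2, HDAC8 to SSNA1, ASB16 and PDAP1, and SIN3A to ZNF395, RPS6 and TRIM27. Such likeness is common with 4 arrays. Between 92 genes (for HDAC3) and 217 genes (for SIN3A) lay within a distance of 0.1.

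The subunits and partners with which these deacetylases work were examined in 8 lists, of which 61 genes passed the filter. In the SIN3 complex, 9 of 17 listed partners had a named cluster, and 0 of the 9 passed 1.5-fold in any comparison, where 4.39% to 18.5% of all genes did. SIN3B, the paralogue of SIN3A, had intensities of 307 in untreated cells, 287 after hydroxyurea, 296 after MS-275 and 305 after both. The histone-binding proteins RBBP4 and RBBP7 belong to SIN3 and NuRD alike. RBBP4 was at 0.74-fold with MS-275 and at 0.84-fold in the presence of hydroxyurea, while RBBP7 was at 1.00-fold and 1.01-fold. SIN3B, RBBP4 and RBBP7 were chosen after their values were seen. Of the CoREST subunits 7 of 10 and of the MiDAC subunits 2 of 3 were measured, and 0 of them passed 1.5-fold in any comparison. With so few genes, these counts of 0 lie near the same backgrounds.

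Factors that recruit SIN3A held the only listed gene past 1.5-fold upwards with MS-275 in both backgrounds. MXD1, which binds SIN3A and competes with MYC for MAX, had intensities of 131 in untreated cells, 201 after hydroxyurea, 227 after MS-275 and 316 after the combination. It was thus lowest in untreated cells and highest after the combined treatment, by 2.42-fold. With MS-275 it was 1.74-fold higher without and 1.57-fold higher with hydroxyurea, and hydroxyurea alone gave 1.54-fold. KLF11, a repressor that binds the same region of SIN3A, was lower on the arrays with MS-275 than on their counterparts. Its intensities were 189.6, 263, 102 and 151 in the same order, which is 1.85 times lower without and 1.74 times lower with hydroxyurea. The other 10 of the 12 factors did not pass 1.5-fold in the 4 single-drug comparisons. With MS-275, 1 of 12 was past 1.5-fold higher and 1 lower, both without and with hydroxyurea. Of all genes, 6.94% and 8.67% were higher and 6.84% and 5.41% lower, so these counts lie near the background.

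In the NuRD complex, 8 of 11 subunits were measured. CHD3, an ATP-dependent remodeller, had intensities of 363 in untreated cells, 406 after hydroxyurea, 182 after MS-275 and 237 after both. Both arrays with MS-275 were below both arrays without it, 1.99 times lower without and 1.71 times lower with hydroxyurea. CDK2AP1 (1.63 times lower with MS-275 on hydroxyurea) and CHD5 (1.74-fold higher with hydroxyurea on MS-275) also passed 1.5-fold. CHD5 was dim, and its ratio was taken against 81.8 on the MS-275 array, under the filter level of 90.5. With MS-275, 1 of 8 subunits was past 1.5-fold lower, and 2 of 8 on hydroxyurea, where 6.84% and 5.41% of all genes were. With hydroxyurea on MS-275, 1 of 8 was higher, next to 4.84% of all genes. These counts were not tested. Of the 3 measured subunits of the HDAC3 complex NCoR/SMRT, 0 passed 1.5-fold with 1 drug alone or added to the other, again near the backgrounds of 4.39% to 14.1%. After the combined treatment TBL1XR1 was 1.76 times and TBL1X 1.57 times lower than in untreated cells, whereas GPS2 was at 1.35-fold and HDAC3 itself was 1.32-fold higher. In that comparison 6.84% of all genes were past 1.5-fold lower. A list of 3 genes is small, and its count was not tested.

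**Figure D3:**
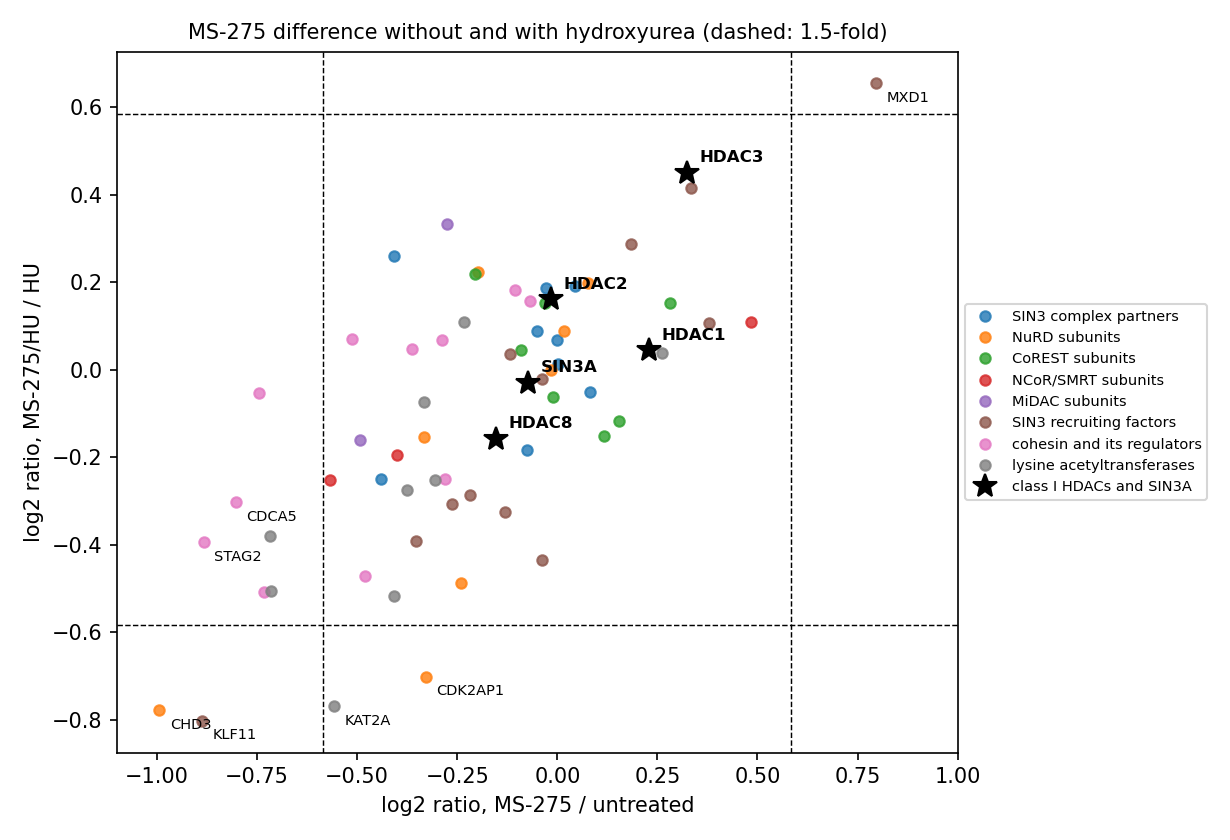
Log2 ratio with MS-275 without (horizontal axis) and with hydroxyurea (vertical axis) for the 5 members (stars) and 61 genes of 8 lists of partners and regulators (circles, coloured by list). Dashed lines mark 1.5-fold. MXD1 lies beyond them at the upper right, and CHD3 and KLF11 lie beyond them at the lower left.

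HDAC8 removes the acetyl group that ESCO1 and ESCO2 place on SMC3, so cohesin genes were set beside it. With MS-275 against untreated cells, 4 of 11 measured genes were past 1.5-fold lower and 0 higher, where 6.84% of all genes were lower and 6.94% higher. They were STAG2 (1.85 times), CDCA5 (1.75 times), SMC1A (1.68 times) and STAG1 (1.66 times). The median of the list was -0.48, while HDAC8 was at -0.15. In the presence of hydroxyurea 0 of the 11 passed, and the median was -0.05. SMC3, the substrate of HDAC8, was at 0.78-fold and 1.03-fold. With hydroxyurea added to MS-275, ESCO2 (1.94-fold), CDCA5 (1.81-fold) and SMC1A (1.66-fold) were higher, where HDAC8 was at 0.89-fold. These are 3 of 11, next to 4.84% of all genes. The falls with MS-275 and these rises share the array of MS-275 alone and are not separate observations. SMC1A read 577, 593, 344 and 571 in untreated, hydroxyurea, MS-275 and combined cells. STAG1 and STAG2 stayed 1.80 and 1.65 times below untreated cells after the combination, where 6.84% of all genes were lower. ESCO2 exceeds the number of genes to be named per list and was chosen after its values were seen.

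The lysine acetyltransferases place the marks that class I HDACs remove. Relative to untreated cells, MS-275 was accompanied by a 1.65 times lower CREBBP and a 1.64 times lower KAT6B, and KAT2A was 1.70 times lower with MS-275 in the presence of hydroxyurea. KAT2B (PCAF) had intensities of 118 in untreated cells, 227 after hydroxyurea, 142 after MS-275 and 233 after both. Both arrays with hydroxyurea were above both arrays without it, by 1.92-fold without and 1.64-fold with MS-275. Past 1.5-fold higher were 1 of 9 acetyltransferase genes with hydroxyurea and 2 of 9 with hydroxyurea on MS-275. Of all genes, 3.12% and 4.84% were. Of 9 acetyltransferase genes, 2 passed 1.5-fold with MS-275 and 1 with MS-275 on hydroxyurea, all of them downwards. Of all genes, 6.84% and 5.41% were lower in these comparisons, so that 1 of 9 is near the background. The list medians were -0.38 and -0.28, next to -0.01 and 0.00 over all genes. HDAC1 was at 0.23 and 0.04, HDAC2 at -0.02 and 0.16, HDAC3 at 0.32 and 0.45 and HDAC8 at -0.15 and -0.16.

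The epithelial nature of the line was checked with 7 markers, of which 5 had a named cluster, and all 5 passed the filter. EPCAM stood between 865 and 1152 on the 4 arrays, KRT18 between 1646 and 2090.0, KRT8 between 151 and 189, KRT19 between 552 and 1083 and CLDN4 between 299 and 523. KRT19 and CLDN4 passed 1.5-fold. KRT19 was 1.90-fold above the untreated array under MS-275 alone and stood 1.72 times lower once hydroxyurea was added to it. For CLDN4, the MS-275 array was 1.52 times below the untreated one, and the array of both drugs 1.68 times below hydroxyurea. Of 8 markers of leukocytes, fibroblasts and endothelium, 2 had a named cluster. Both PECAM1 (21.0 to 31.0) and VWF (41.3 to 44.6) were below the filter on every array. The median intensity over all clusters was between 45.9 and 47.1 on the 4 arrays.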

How the data were processed

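The submitters' processing notes name RMA, a method that subtracts background, normalizes between arrays and summarises the probes of each transcript cluster. Its version is not given in the sources used here. In the table, the deposited intensities are linear and run from 1.92 to 17815, 1 column for each of the 4 arrays and 53617 clusters. Normalization between arrays makes every value relative, and a shift common to all genes would not appear. Log2 of the intensities was taken without a pseudocount.

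The platform's probe table named 16098 clusters, all matched to current records by Entrez identifier with 0 updates, and 37519 are unnamed here. Where a gene had several clusters (779 genes), the brightest was used, and genes with a mean at or above 90.5 were compared. Ratios between 2 arrays were counted as past 1.5-fold or 1.2-fold. The rule that calls genes past 1.5-fold with MS-275 in both backgrounds was run on simulated arrays with known changes. The noise of those arrays was set by choice and not estimated here, so the run does not measure the error of the calls. Up to 4 genes per list were named, those past 1.5-fold in both backgrounds first, and the 3 nearest genes per member by Euclidean distance. The members and lists were chosen with earlier results of these data known. Alternatives were no filter, a filter at the 75th percentile (238.5), 2-fold and 1.2-fold bounds, the mean of a gene's clusters, median centring and quantile normalization. Python 3.11.15, numpy 2.4.6, pandas 2.3.3 and matplotlib 3.10.9 were used. Precision is limited by having 1 array per condition.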

Additional observations from a re-analysis of the deposited data

Results flagged for a closer look

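In HDAC1, HDAC2 and HDAC3, and in the dimmer HDAC2 cluster, the difference with a drug had opposite signs without and with the other drug. The share of all genes with such opposite signs was not counted, so the signs are not read as a trait of these genes. Each direction rests on 1 pair of arrays, and the change of the difference was not tested. For HDAC1, the hydroxyurea difference was 0.12 on the log2 scale without MS-275 and -0.06 with it, a change of -0.19. For HDAC3, it was -0.05 and 0.07, a change of 0.13. The MS-275 difference of the brighter HDAC2 cluster was -0.02 without and 0.16 with hydroxyurea, a change of 0.18. Changes at least as large as those of HDAC1, HDAC2 and HDAC3 were found in 45.6%, 47.4% and 61.4% of all genes. The dimmer cluster of HDAC2 gave a hydroxyurea difference of 0.10 without and -0.48 with MS-275, a change of -0.58, at intensities below the filter.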

How the results depend on the processing

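The count of class I HDAC and SIN3A genes past 1.5-fold was 0 in all 5 comparisons also with median centring and with quantile normalization. It was 0 as well without the filter, with the filter at the 75th percentile, with a 2-fold bound and with the mean of clusters. Those settings could not raise the count. All members already passed the main filter, and a stricter filter or bound only removes genes. Members other than HDAC2 have 1 cluster each. HDAC2 and HDAC8 were below the 75th percentile filter, and HDAC2 was below the main filter with the mean of its clusters, so they left those counts. The dimmer HDAC2 cluster, which passed 1.5-fold with the combined treatment against hydroxyurea and against untreated cells, entered none of these counts. At 1.2-fold the count was 1 with MS-275, 1 with MS-275 on hydroxyurea and 2 between the combination and untreated cells. The members gave 84 values with the mean of clusters, median centring and quantile normalization. Of these, 80 kept their sign, and the largest move was 0.08 on the log2 scale. With the mean of clusters, HDAC2 was absent and the other members kept their main values, so those signs could not change. The exceptions were HDAC2 with hydroxyurea on MS-275 (0.01 after median centring) and SIN3A with MS-275 on hydroxyurea (0.00 after quantile normalization). The non-additivity of HDAC8 also changed sign, to 0.00 after median centring and 0.00 after quantile normalization.

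For the 61 partner genes, 1 was higher and 8 lower with MS-275, 1 and 4 with MS-275 on hydroxyurea, 2 and 0 with hydroxyurea, 6 and 0 with hydroxyurea on MS-275, and 3 and 8 with the combination against untreated cells. In the same order, 6.94%, 8.67%, 3.12%, 4.84% and 11.7% of all genes were higher and 6.84%, 5.41%, 1.27%, 1.03% and 6.84% lower. With the 75th percentile filter, which removes genes, counts past 1.5-fold were 0 higher and 5 lower with MS-275, and 0 and 3 with MS-275 on hydroxyurea. They were 0 and 0 with hydroxyurea, 3 and 0 with hydroxyurea on MS-275, and 0 and 5 with the combination. At 2-fold they were 0 in every comparison except 1 higher with the combination. The listed genes left by this filter, and the shares of all genes under this filter or past 2-fold, were not counted. These counts therefore have no background beside them. At 1.2-fold, higher and lower counts were 5 and 28 with MS-275, 4 and 18 with MS-275 on hydroxyurea and 9 and 9 with hydroxyurea. They were 12 and 4 with hydroxyurea on MS-275, and 9 and 23 with the combination. In the same order, 44.7%, 45.4%, 28%, 28.5% and 50.5% of all genes were past 1.2-fold in either direction. These shares join both directions and are not backgrounds for a count in 1 direction. With the combination, 26.8% of all genes were higher and 23.7% lower. No paired analysis was possible because each condition has 1 array.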
